A study of Mus musculus with 8 samples.

Results

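The 10 mRNAs described here encode actin or proteins that bind it. Tmsb4x and Tmsb10 encode beta-thymosins, which hold actin monomers in reserve. Pfn1 encodes profilin, which delivers monomers to growing filaments, and Cfl1 encodes cofilin, which severs filaments. Tagln and Tagln2 encode transgelins and Tpm1 encodes tropomyosins, all of which bind along filaments. Actb and Actg1 encode the cytoplasmic beta- and gamma-actins, and Myl6 encodes a light chain of myosin. The members were found by gene symbol among the reads on mRNAs whose poly(A) tail passed the quality tag of the tail caller. All 10 had reads, among 13120 genes with reads, and they held 19295 of the 1926118 reads used (1.00%). They were selected on function and in part on read counts, for the rise of Tmsb4x and Tagln under MHY at 48 h. The difference between MHY and DMSO at 48 h, in reads and in tails, is therefore given for these genes as a description, with no test.

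Mouse P19 cells, an embryonal carcinoma line of wild type genotype, were kept undifferentiated and exposed to MHY1485 (MHY), an activator of the mTOR kinase, or to its solvent DMSO. The 4 groups were DMSO for 24 h, 10 µM MHY for 24 h, DMSO for 48 h and 10 µM MHY for 48 h, with fresh solution given each day. Each group had 2 libraries, which the study calls biological replicates, and all came from this 1 cell line. Nanopore direct RNA sequencing passes the native RNA through a pore from its 3′ end, so that each read is 1 molecule and carries an estimate of its own tail length in nucleotides (nt). The libraries are called by the numbers of the deposited table, 21 and 23 at 24 h, and 24 and 25 at 48 h, and values are given in that order. The same 3 sequencing runs held all libraries of 24 h and another 2 runs held those of 48 h, so the time point and the run cannot be told apart, while both treatments shared every run.

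The libraries held 178369 to 316546 reads on mRNAs. Levels are given as scaled RPM, the reads of a gene per 1000000 reads of the library, with library sizes adjusted by the median ratio across genes. Of 10 markers of undifferentiated embryonal carcinoma cells 9 were detected (Zfp42 was at 0), and at 24 h they summed to 3939.6 and 4298 scaled RPM with DMSO and 3755 and 3906 with MHY, both MHY libraries below both controls. Pou5f1 made up most of each sum (2710 and 2985 with DMSO, 2465 and 2694 with MHY). Besides Pou5f1, only Lin28a was lower in both MHY libraries of 24 h (147 and 119 with DMSO, 83.9 and 115 with MHY), and the other detected markers overlapped. At 48 h the sums were 3863 and 4186 with DMSO and 3333 and 3921 with MHY, which overlapped. Of the 9 at 48 h, Tdgf1 was lower in both MHY libraries (286 and 341 with DMSO, 135 and 195 with MHY), and the others overlapped. Of 7 smooth muscle markers, Myocd and Lmod1 were at 0 in every library. The summed level of that list was 18.6 to 65.3 scaled RPM in the DMSO libraries of 24 h, 35.3 to 40.4 with MHY at 24 h, 23.4 to 29.3 with DMSO at 48 h and 36.3 to 61.8 with MHY at 48 h. Fewer cells of a type and less RNA per cell cannot be told apart in such bulk libraries.

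Actin moves between a pool of monomers and filaments. Thymosins and profilin set how many monomers are free, cofilin returns old filaments to the pool, and tropomyosins and transgelins stabilise filaments on which myosin pulls. Free monomers also hold back the cofactors of serum response factor, a transcription factor that binds the CArG box and is known to drive many genes of the cytoskeleton. Tails are added in the nucleus and shorten in the cytoplasm, and tails too short for the poly(A) binding protein are known to precede decay.

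Promoter windows from RefSeq (GRCm38.p6, 300 bases each, from 250 before to 50 after an annotated start) were found for 8 of the 10 members. Those of the thymosin pair and of Actg1 are shown here because Tmsb4x was chosen for its rise at 48 h and Tmsb10 is its close relative, and because the Actg1 window holds a CArG box. Capitals mark GGGCGG (read on either strand, overlapping matches run together), TATAA and the CArG box. Each is written 5′ to 3′ on the gene's own strand, which is the minus strand in all 3.
Tmsb4x, chrX:167209169-167209468: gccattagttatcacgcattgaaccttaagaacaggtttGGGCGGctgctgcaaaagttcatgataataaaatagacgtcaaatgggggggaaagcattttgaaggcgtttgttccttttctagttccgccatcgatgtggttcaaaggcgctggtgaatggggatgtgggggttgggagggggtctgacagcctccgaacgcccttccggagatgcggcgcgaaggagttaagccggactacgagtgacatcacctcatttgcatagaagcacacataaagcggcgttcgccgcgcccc
Tmsb10, the first 100 bases of 1 of its 3 windows, chr6:72958383-72958482: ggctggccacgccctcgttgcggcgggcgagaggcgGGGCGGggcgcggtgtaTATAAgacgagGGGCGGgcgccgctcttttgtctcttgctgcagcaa
Actg1, chr11:120348446-120348745: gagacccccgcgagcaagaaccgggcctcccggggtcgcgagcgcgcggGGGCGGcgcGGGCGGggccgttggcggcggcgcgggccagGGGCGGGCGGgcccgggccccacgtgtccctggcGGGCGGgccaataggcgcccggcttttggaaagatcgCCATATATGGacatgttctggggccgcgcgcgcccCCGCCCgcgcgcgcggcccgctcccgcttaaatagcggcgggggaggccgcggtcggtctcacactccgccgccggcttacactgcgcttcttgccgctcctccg

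The printed Tmsb4x window held 1 GGGCGG and neither of the other motifs. Its reads began most often 69 bases past the annotated start, which is beyond the printed bases. The Tmsb10 stretch held 2 GGGCGG and 1 TATAA, and the most frequent start of Tmsb10 reads fell on its base 96, which lies 155 bases before the annotated start of this window. The other 2 Tmsb10 windows held no TATAA. The Actg1 window held 6 GGGCGG and 1 CArG box, and reads began most often at its base 266. Among 32851 promoter windows of the same length, searched on both strands, GGGCGG was in 35.7%, TATAA in 24.9% and the CArG box in 1.63%. The 8 members had 11 windows, 3 for Tmsb10 and 2 for Myl6, of which 10 held GGGCGG, 3 TATAA and 2 the CArG box (Actg1 and Myl6). Counting for each member the window whose annotated start lay nearest to its most frequent read start, these were 7, 1 and 1 of 8 windows. For Tmsb10 this rule took a window that is not printed, whose annotated start lay 97 bases before the read start. The TATAA of the printed Tmsb10 stretch, at its bases 54 to 58, was therefore not counted, although the read start fell within that stretch. The 1 TATAA counted was that of Cfl1, on the opposite strand. The Myl6 window at the start that its reads used held none of the motifs.

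The measured tails begin where the reads end, so the 30 bases at the most frequent read end of the paralog pairs are shown, with the poly(A) signal in capitals. They were read from GENCODE transcripts on GRCm38, in the sense of the mRNA, and that of Tagln runs 10 bases past its most frequent end.
Tmsb4x, chrX:167207093-167207122: ttaatatgcaAATAAAgttttaaaacctga
Tmsb10, chr6:72957352-72957381: gattgatgaaAATAAAaacacctcgtggca
Tagln, chr9:45929973-45930002: aaaaaagaaaaatatataaatatatatata
Tagln2, chr1:172507347-172507376: ttaAATAAAaagatctcattttgttttgca
Actb, chr5:142903132-142903161: cactgacttgagaccAATAAAagtgcacac
Actg1, chr11:120345690-120345719: gtaaagaAATAAAagtgctgcagtaactga

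Of the 10 members, 9 had AATAAA in the interval from 40 bases before to 15 after the read end, and Tagln had neither AATAAA nor ATTAAA there. The read ends lay within 20 bases of the annotated end for 8 members. Tagln reads ended 364 bases and Cfl1 reads 1170 bases before the end of the transcript model that they were aligned to, and 96.9% and 96.3% of their reads ended within 10 nt of that point.

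Tmsb4x was read almost only from ENSMUST00000112172.3 (chrX:167207093-167209315, 3 exons), which held 99.1% of its 860 reads. At 24 h it had 316 and 309 scaled RPM with DMSO, and 292 and 462 with MHY. At 48 h it had 318 and 279.7 with DMSO, from 68 and 86 reads, and 777 and 703 with MHY, from 264 and 155 reads. The MHY libraries of 48 h stood above the other 6, while those of 24 h overlapped their controls. The fitted log2 difference (MHY over DMSO) was 0.20 (SE 0.20) at 24 h, with an adjusted p of 0.987 in limma, and 1.32 (SE 0.17) at 48 h. Leaving out each library of 48 h in turn gave 1.22 to 1.40, and the 2 runs of 48 h gave 1.43 and 1.24 when taken alone. Tmsb4x was chosen for this rise and both runs read the same libraries, so these values describe the rise and do not replicate it.

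Tmsb10, the close relative of Tmsb4x, was read from ENSMUST00000114050.7 (chr6:72957347-72958488, 3 exons) in 94.5% of its 2443 reads. With DMSO it had 1273 and 1109 scaled RPM at 24 h, and 1363 and 1268 at 48 h. With MHY it had 1378 and 1535 at 24 h, and 1150.2 and 1183 at 48 h. Both MHY libraries were thus above both controls at 24 h and below them at 48 h. The log2 difference was 0.30 (SE 0.14) at 24 h, which limma did not call (adjusted p = 0.958, unadjusted p = 0.0376), and -0.17 (SE 0.14) at 48 h. Mapping quality reached 10 in 5.40% of Tmsb10 reads, the lowest share among the members, against 81.0% for Tmsb4x.

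Pfn1 and Cfl1, the other 2 members that act on monomers and turnover, overlapped between treatments at both times. Pfn1 (ENSMUST00000018437.2, chr11:70651850-70654644) had 2187 and 1574 scaled RPM with DMSO and 2049.8 and 1806 with MHY at 24 h, and 1925 and 1730.2 with DMSO and 1641 and 2013 with MHY at 48 h. Cfl1 (ENSMUST00000209469.1, chr19:5490455-5495201) had 2128 and 1742 with DMSO and 1727 and 2048 with MHY at 24 h, and 1775 and 1714 with DMSO and 1456 and 1777 with MHY at 48 h. Their log2 differences were 0.08 (SE 0.13) and -0.03 (SE 0.13) at 24 h, and -0.02 (SE 0.12) and -0.13 (SE 0.13) at 48 h.

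Tagln was the rarest member, with 65 reads, all on ENSMUST00000034590.3 (chr9:45929619-45936058, 5 exons). It had 2 and 2 reads with DMSO and 1 and 3 with MHY at 24 h, and 4 and 5 reads with DMSO and 32 and 16 with MHY at 48 h. On the scaled level the 6 libraries other than MHY at 48 h lay between 4.42 and 18.7 RPM, and the MHY libraries of 48 h were at 94.1 and 72.5. Tagln met the minimum of 10 reads in 2 libraries only through those 2 libraries. Its log2 difference was 2.19 (SE 0.59) at 48 h, and 2.04 to 2.28 when 1 library was left out, and the 2 runs alone gave 2.68 and 1.53 from 29 and 28 reads. Tagln too was chosen for its rise at 48 h, so these values are a description only. At 24 h the difference of 0.05 had an SE of 1.16, so that changes of several-fold were not detectable at this depth.

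Tagln2 had 263 reads, all on ENSMUST00000111230.7 (chr1:172500047-172507380, 5 exons). It was at 114 and 134 scaled RPM with DMSO and 115 and 190.4 with MHY at 24 h, and at 122 and 111 with DMSO and 150.03 and 163 with MHY at 48 h. Both MHY libraries were above both controls at 48 h, with a log2 difference of 0.42 (SE 0.26). The 24 h difference was 0.20 (SE 0.28, limma adjusted p = 0.987).

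Tpm1 reads were spread over 14 transcripts of the gene, and the most read, ENSMUST00000113697.7 (chr9:67022615-67049275, 9 exons), held 38.3% of its 522 reads. The gene was at 267 and 249 scaled RPM with DMSO and 208 and 237 with MHY at 24 h, and at 253 and 231 with DMSO and 362 and 317 with MHY at 48 h. Both MHY libraries were below the controls at 24 h and above them at 48 h. The log2 difference was -0.22 (SE 0.23, limma adjusted p = 0.987) at 24 h and 0.51 (SE 0.19) at 48 h. The next most read transcript, ENSMUST00000113696.7 (chr9:67022590-67043907), starts further inside the gene. It held 26.5%, 32.8%, 44.7% and 26.8% of Tpm1 reads in the libraries of 24 h, DMSO first, and 22.2%, 12.7%, 9.76% and 11.4% in those of 48 h. Every library of 48 h was below every library of 24 h, and 11 to 22 reads (24 h) and 8 to 12 reads (48 h) stood behind these shares. The time point and the run cannot be told apart here, and how many other transcripts separate in this way was not counted. Mapping quality reached 10 in 69.3% of Tpm1 reads, so reads of its transcripts may be split between models.

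Actg1 was the member with the most reads (6302), 94.0% of them on ENSMUST00000071555.12 (chr11:120345690-120348542, 6 exons), whose promoter is shown above. It had 3221 and 2538 scaled RPM with DMSO and 3097 and 3265 with MHY at 24 h. At 48 h it had 3142 and 3044 with DMSO and 4012 and 3581 with MHY. The MHY libraries of 48 h were the highest 2 of the 8, and the log2 difference was 0.31 (SE 0.10) at 48 h against 0.17 (SE 0.12, limma adjusted p = 0.958) at 24 h. Actb (ENSMUST00000100497.10, chr5:142903115-142906754, 6 exons) had 684 reads. It had 267 and 316 with DMSO and 376 and 254 with MHY at 24 h, and 314 and 449 with DMSO and 318 and 490 with MHY at 48 h. These groups overlapped at both times, with log2 differences of 0.10 (SE 0.21) and 0.01 (SE 0.18).

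Myl6, the myosin light chain, was read from ENSMUST00000164181.1 (chr10:128490860-128493875, 6 exons) in 89.9% of its 1211 reads. It was at 517 and 651 scaled RPM with DMSO and 548 and 727 with MHY at 24 h. At 48 h it was at 571 and 611 with DMSO and 724 and 612 with MHY. The lower MHY library of 48 h exceeded the higher control by less than 1 scaled RPM, so the groups did not overlap but nearly touched. Its log2 differences were 0.10 (SE 0.17) and 0.18 (SE 0.16).

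**Figure D1:**
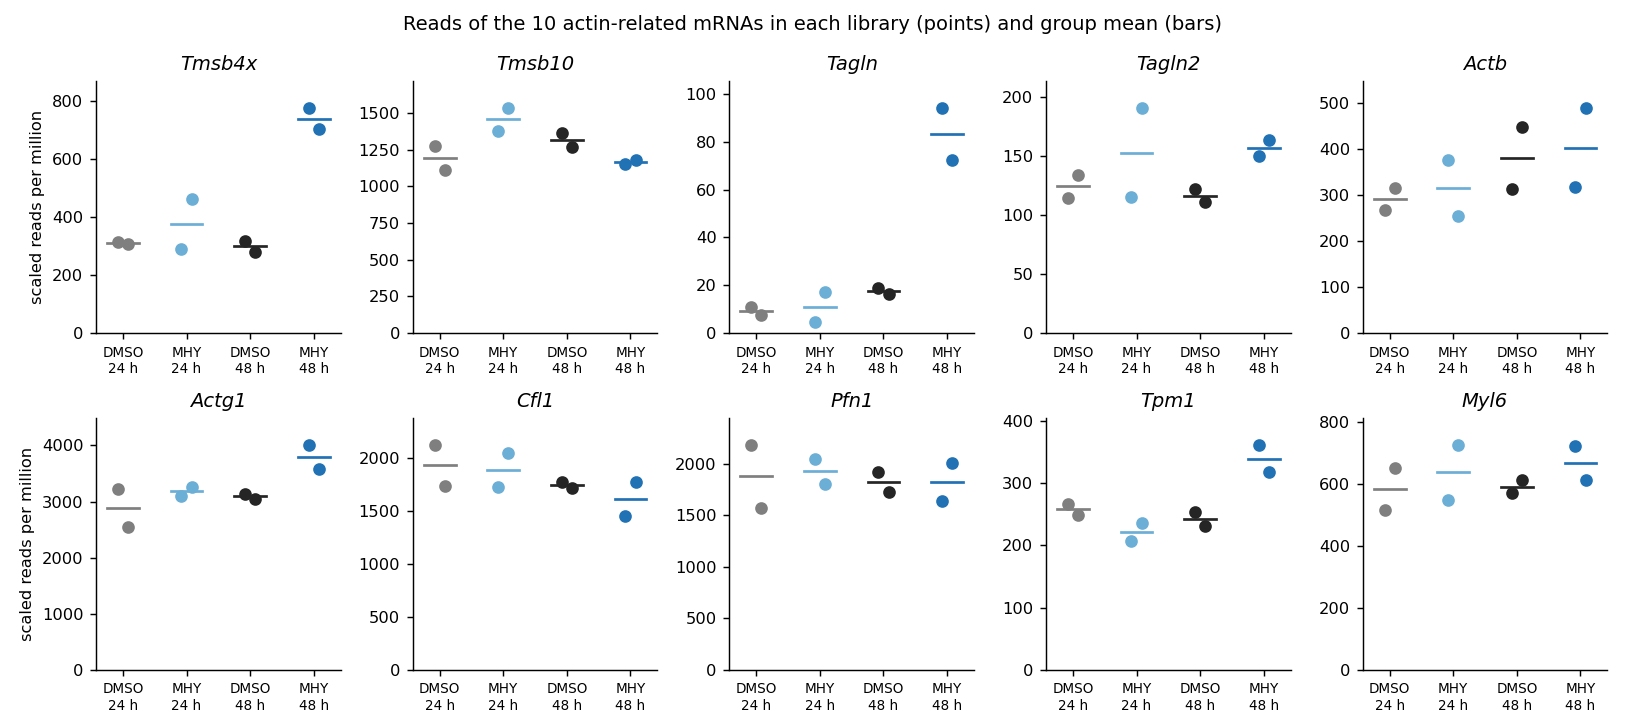
Scaled RPM (y axis, linear, from 0) of each of the 10 mRNAs in the 4 groups (x axis). Points are the 2 libraries of a group and bars their mean. Tmsb4x and Tagln stand apart with MHY at 48 h, where Tmsb4x is at 777 and 703 and Tagln at 94.1 and 72.5, while Pfn1, Cfl1 and Actb overlap between treatments.

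Across the members at 24 h, limma called 0 of 10 at an adjusted p under 0.05, where it called 2 of 4116 genes (0.0486%), and 1 member (Tmsb10) had an unadjusted p under 0.05, as had 184 genes (4.47%). Of the 10 fitted differences of 24 h, 8 were above 0, against 47.3% of all genes, and their median was 0.10 on the log2 scale, against -0.02 over all genes. Without Tagln, which entered the test through its 48 h reads, 0 of 9 were called and 7 were above 0. Both MHY libraries were above both DMSO libraries in 1 member (15.7% of genes) and below them in 1 (18.9% of genes). At 48 h limma called 71 genes (1.72%). In that contrast, which the choice of members used, 6 members had both MHY libraries above both DMSO libraries (18.6% of genes) and 1 had them below (21.3%). Scaling by total reads in place of the median ratio moved the median of all genes by 0.12 on the log2 scale at 48 h. Under it the 48 h value of Pfn1 became 0.10, whereas those of Tmsb4x, Tagln, Tagln2, Tpm1, Actg1 and Myl6 stayed above 0 and those of Tmsb10 and Cfl1 below it.

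**Figure D2:**
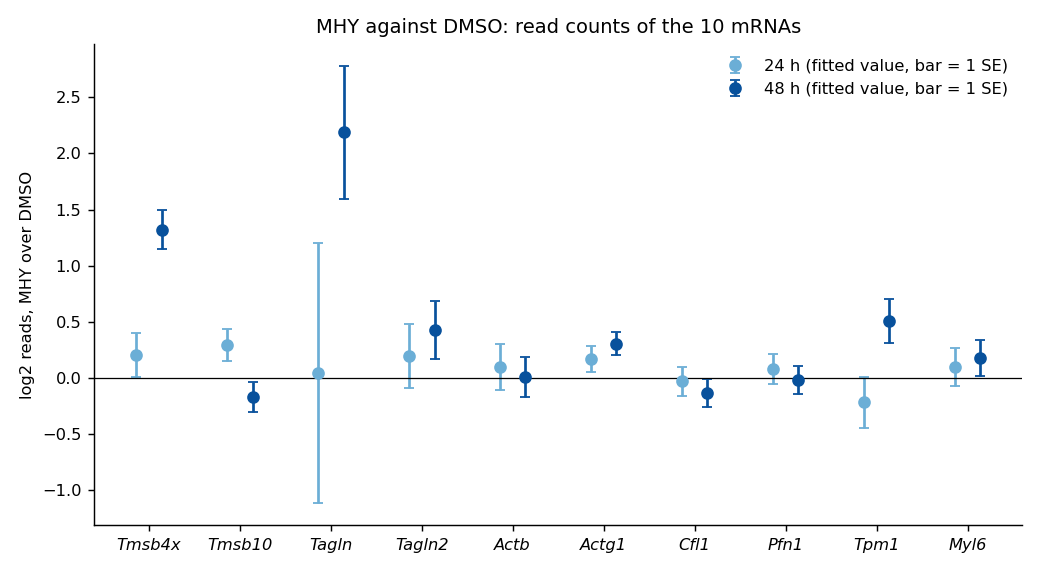
Fitted log2 difference in reads, MHY over DMSO (y axis), of each mRNA (x axis) at 24 h (light) and 48 h (dark), with bars of 1 SE. Tmsb4x (1.32) and Tagln (2.19) lie farthest above 0 at 48 h, and the wide bar of Tagln at 24 h (SE 1.16) rests on 8 reads.

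Vim, a marker shared by mesenchymal and many cultured cells, was read beside the filament-binding members. It had 187 and 250.4 scaled RPM with DMSO and 644 and 317 with MHY at 48 h, and 185 and 201 with DMSO and 292 and 288 with MHY at 24 h. The 8 markers of fibroblasts or mesenchyme summed to 244 to 322 with DMSO and 354 to 680 with MHY at 48 h. The summed level of the other 7 without Vim went the other way, at 56.2 and 71.5 with DMSO and 35.3 and 36.3 with MHY. The single markers did not share this direction. Fn1 was at 23.4 and 61.8 with DMSO and 20.6 and 27.2 with MHY, and Thy1 overlapped too. Col1a2 was lower in both MHY libraries, and Col1a1 was higher (0 and 3.25 with DMSO, 5.88 and 4.53 with MHY), each from 0 to 2 reads per library. Lum and Dcn were at 0 in all libraries of 48 h, and Col3a1 was at 0 in every library. Of the 7 smooth muscle markers at 48 h, Acta2 had 4.68 and 13.0 scaled RPM with DMSO and 23.5 and 13.6 with MHY, and Cnn1 had 9.37 and 3.25 with DMSO and 26.5 and 9.07 with MHY. Des was between 3.25 and 5.88 and Smtn between 4.68 and 9.07 in these 4 libraries, Myh11 was read in 1 DMSO library only, and Myocd and Lmod1 were at 0. Neuron markers summed to 296 to 328 with DMSO and 209 to 227 with MHY at 48 h (Dcx and Rbfox3 at 0). Stmn2 carried the lower sum, at 272 and 250.4 with DMSO and 159 and 168 with MHY, while Tubb3 was at 32.8 and 35.8 with DMSO and 58.8 and 40.8 with MHY. The endoderm or mesoderm markers summed to 112 to 325 with DMSO and 73.5 to 267 with MHY (Sox17 at 0). Their part in the rise of Tagln and Tmsb4x was not tested.

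A wider list of 79 other genes of the actin cytoskeleton was examined by role, 74 of which had reads and 48 of which had enough for a test. None was called at 24 h by limma (1, Marcksl1, had an unadjusted p under 0.05). At 48 h 1 rose and 0 fell, where 17 of 4116 genes (0.413%) rose and 54 (1.31%) fell. That balance depended on the scale, since with total reads as the scale 32 of 60 called genes were higher with MHY, while 1 gene of the list was called under either. Cnn2, which encodes a calponin, a filament-binding protein related to the transgelins, rose with a log2 difference of 0.96 (SE 0.28, limma adjusted p = 0.0386). It had 65.6 and 104 scaled RPM with DMSO and 197 and 136 with MHY at 48 h, and leaving out library 24 of MHY lowered the difference to 0.66 (adjusted p = 0.794), DMSO library 24 to 0.69 (0.344), and without DMSO library 25 it was 1.33 (0.199). It stayed called without MHY library 25 (1.18, adjusted p = 0.00342).

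By role, limma tested 9 subunits of the Arp2/3 complex, which branches filaments, and 5 of the 9 lay above 0 at 48 h with a median log2 of 0.08 (-0.02 over all genes), none called. Of 6 other genes of monomer binding and turnover, 4 lay above 0 with a median of 0.40, and of 19 cross-linkers and adhesion genes 8 with a median of -0.01. Of 6 genes of tropomyosins, calponins and caldesmon, 5 lay above 0 with a median of 0.19. Of the 4 tested genes of non-muscle myosin II, the partner of Myl6, 1 lay above 0 and the median was -0.32. Of 3 capping proteins, 2 lay above 0 with a median of 0.13. Of 8 genes of the serum response factor circuit all had reads, but Ccn1 alone had enough for a test, and the other 7 had 0 to 10 reads per library. At 48 h, 6 of the 48 genes had an unadjusted p under 0.05, where 12.3% of all 4116 genes had one. The 5 apart from Cnn2 were not called, and they were named after their values were seen. Their log2 differences were 0.70 for Cap1 (adenylyl cyclase-associated protein, which recycles monomers), 0.54 for Dstn (destrin, a relative of cofilin), 0.84 for Cald1 (caldesmon), 0.65 for Arpc5l (an Arp2/3 subunit) and 1.32 for Ccn1, a known target of serum response factor, with limma adjusted p from 0.139 for Cap1 to 0.347 for Arpc5l.

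Tails were then examined. Of the 10 members, 9 had at least 10 reads in every library, as had 1949 genes in all, and Tagln did not. The mean over the 8 libraries of the median tail was 127 nt ± 5.52 (SD) for Actb, 110 nt ± 3.61 for Pfn1, 106 nt ± 3.32 for Tmsb10, 105 nt ± 5.86 for Tmsb4x, 104 nt ± 6.61 for Myl6, 104 nt ± 11.1 for Tpm1, 102 nt ± 17.1 for Tagln2, 102 nt ± 4.81 for Actg1 and 97.1 nt ± 3.52 for Cfl1. The same mean over all 1949 genes had a median of 100.3 nt and quartiles of 93.4 and 108 nt, so 8 of the 9 lay above the median gene, and Actb lay above 97.5% of genes. From Tmsb10 down to Actg1, neighbours in this order differed by less than their SD. Between treatments the medians did not overlap in Tmsb4x and Tpm1 at 24 h, longer with MHY (14.3% of genes, and 17.9% of genes shorter, with 0 members). At 48 h they did not overlap in Pfn1, longer with MHY (12% of genes), and in Actb and Cfl1, shorter with MHY (21.8% of genes).

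**Figure D3:**
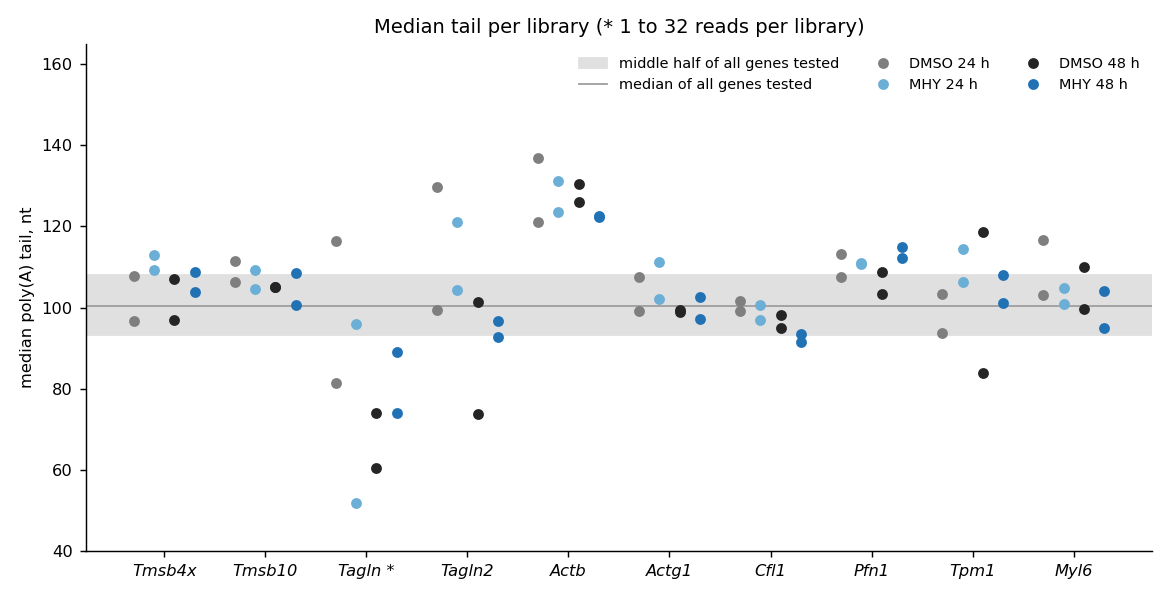
Median poly(A) tail in nt (y axis, from 40 nt) of each mRNA (x axis) in each library (points, coloured by group). The grey band spans the quartiles of all 1949 genes (93.4 to 108 nt) and the line is their median (100.3 nt). Actb lies above the band in all 8 libraries, and Tagln rests on 1 to 32 reads per library.

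The paralog pairs were compared library by library, by an exact sign-flip permutation test (two-sided, 8 libraries, smallest possible p 0.00781, Benjamini-Hochberg over the 3 pairs). Actb and Actg1, whose coding sequences are 88.6% identical, differed in every library. In the order DMSO 21 and 23, MHY 21 and 23, DMSO 24 and 25, MHY 24 and 25, Actb tails had medians of 121, 137, 131, 124, 126, 131, 123 and 122 nt. In the same order, Actg1 tails had medians of 99.3, 108, 102, 111, 98.9, 99.4, 97.1 and 103 nt. The Actb median was longer by 24.5 nt ± 6.18 (SD, n = 8), in 8 of 8 libraries (exact p = 0.00781, adjusted p = 0.0117). Tmsb4x and Tmsb10, with coding sequences 69.7% identical, differed by -0.93 nt ± 7.59 (exact p = 0.758), Tmsb4x being longer in 5 of 8 libraries. The direction turned with the mean tail (1.72 nt) and with mapping quality of at least 10 (8.32 nt), which few Tmsb10 reads reached. Tagln tails were shorter than those of Tagln2 by 22.0 nt ± 14.5 in 8 of 8 libraries (exact p = 0.00781, adjusted p = 0.0117), but the Tagln medians rest on 1 to 5 reads in 6 of them. With a barcode confidence of at least 0.9 this difference was -10.5 nt and not called (exact adjusted p = 0.445).

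The reads of the actins differed in where they began. Of the Actg1 reads on its main transcript, 66.9% began within a window at the 5′ end of the model (up to 50 nt past the 5th percentile of read starts), and 63.2% to 71.2% did so in each library. Of Actb reads 12.7% reached that window, with 4.38% to 27.9% per library, and the aligned part of an Actb read had a median of 521 nt of a model of 1920 nt. For the other members of a single main transcript the share was 92.7% for Tmsb4x, 98.3% for Tmsb10, 76.9% for Tagln, 70.0% for Tagln2, 79.2% for Cfl1, 90.4% for Pfn1 and 96.4% for Myl6. Actb had the lowest share of these 9 genes.

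Splitting the reads by this reach, a step chosen after the starts were seen, changed the tails of Actb. The 86 Actb reads that reached the 5′ window had a median tail of 98.5 nt and the 589 shorter reads one of 130 nt. Per library the shorter reads had the longer tails by 36.8 nt ± 24.9 (SD), in 8 of 8 libraries (exact sign-flip p = 0.00781, adjusted p = 0.0391 over 5 genes). The 5 genes were those with at least 4 reads of each class in every library, a minimum that Actb just met in MHY library 21. The gap ranged from 16.9 to 95.2 nt, and the 4 reaching reads of MHY library 21 had a median of 39.6 nt. In Actg1 the same difference was -1.45 nt ± 5.15, in Cfl1 -0.95 nt ± 5.82 and in Pfn1 1.24 nt ± 12.6, with exact p of 0.617, 0.664 and 0.789. In Tagln2, the fifth gene, it was -4.08 nt ± 29.3 (exact p = 0.695), with a wider spread than in Actb. Among reads reaching the 5′ window alone, Actb minus Actg1 was -9.86 nt ± 22.1 (exact p = 0.188, adjusted p = 0.563). Over the 7 libraries with at least 5 such Actb reads, a minimum set after the values were seen that leaves out MHY library 21, it was -2.32 nt ± 6.11 (exact p = 0.375). By start, the 96 Actb reads from below 500 nt had a median of 98.5 nt, the 42 from 500 to below 1000 nt one of 124 nt, the 298 from 1000 to below 1500 nt one of 133 nt and the 239 from 1500 nt on one of 129 nt.

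**Figure D4:**
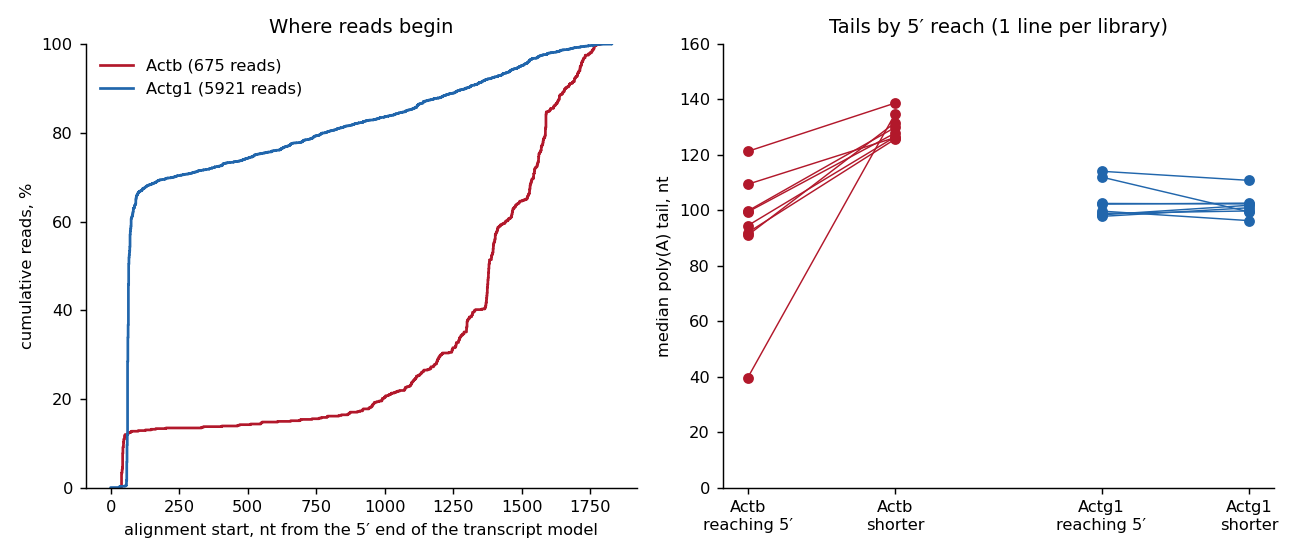
Left, cumulative percent of reads (y axis) by the start of the alignment in nt from the 5′ end of the main transcript (x axis) for Actb (red, 675 reads) and Actg1 (blue, 5921 reads). Right, median tail in nt (y axis) of the reads that reach the 5′ window and of shorter reads, with 1 line per library. All 8 Actb lines rise, from 98.5 to 130 nt over the pooled reads, and those of Actg1 do not move in one direction.

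Tails under 30 nt were few among the members. Their mean share over the 8 libraries was 0.53% for Tmsb10, 0.54% for Pfn1, 0.62% for Actb, 1.16% for Cfl1, 1.45% for Myl6, 1.77% for Tmsb4x, 1.79% for Actg1, 3.16% for Tpm1 and 3.34% for Tagln2, and 7 of the 9 lay below the median gene (2.93%). For Tmsb10, Pfn1 and Actb these shares rest on 0 to 5 reads per library. Tails of 30 to 90 nt made up 22.1% of Actb reads and 31.5% to 41.7% of those of the other 8, with 39.2% in the median gene.

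At 24 h, limma on the log2 odds of these shares called 0 of the 9 members and 0 of 1949 genes in either class (0%), with 110 genes (5.64%) at an unadjusted p under 0.05 for tails under 30 nt and 95 (4.87%) for tails of 30 to 90 nt. For tails under 30 nt, 3 of the 9 members (Actb, Actg1 and Cfl1) had an unadjusted p under 0.05, and all 3 were higher with MHY. Of the 9, 5 had a fitted difference above 0, against 46.6% of genes, and the libraries did not overlap in 3 that were higher with MHY (Actg1, Cfl1 and Myl6, 7.8% of genes) and in Tagln2, which was lower (14.2% of genes). For tails of 30 to 90 nt no member had an unadjusted p under 0.05, 3 of 9 lay above 0 (54.4% of genes), and the libraries did not overlap in 2, both lower with MHY (14.1% of genes, and 17.9% of genes higher). Cfl1 had 0% and 0.64% with DMSO and 1.53% and 1.41% with MHY, from 0, 3, 6 and 5 reads. For the library with 0 of 391 reads the 95% Wilson interval reached 0.97%, and the interval of MHY library 21 was 0.71% to 3.31%. The log2 difference of Cfl1 was 2.28 (SE 0.69, limma adjusted p = 0.684, unadjusted p = 0.00974), and without DMSO library 23 it was 3.67 and called (adjusted p = 0.0161), a value that rests on the 1 remaining DMSO library, which had 0 such reads and was assumed to vary like the other groups. Actg1 had 0.84% and 1.17% with DMSO and 1.71% and 1.59% with MHY, with a log2 difference of 0.68 (SE 0.23, limma adjusted p = 0.721). With a bound of 20 nt in place of 30 nt this difference turned to -2.58. Run by run, MHY minus DMSO was 1.41, 0.48 and -0.35 percentage points for Actg1, so the direction did not hold in the third run, and 0.94, 0.49 and 2.81 points for Cfl1. Actb had 2 such reads with MHY library 21 and 0 in each of the other 3 libraries. Myl6 had 0 and 1 such reads with DMSO and 2 and 1 with MHY, and run by run its difference was 1.97, 1.06 and -1.28 points.

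At 48 h, given as a description, Actg1 had 1.94% and 1.39% of tails under 30 nt with DMSO and 2.86% and 2.78% with MHY, a log2 difference of 0.81 (SE 0.19). Over all reads of a library the share was 4.46% and 3.38% with MHY at 48 h and 2.17% to 2.87% in the other 6 libraries, and the part of this shift in the values of single genes was not tested. Of the 9 members, 7 had a fitted difference above 0, against 66.5% of all genes, and the median was 0.54 against 0.41 over all genes. Both MHY libraries exceeded both controls in 4 members (26.1% of genes), namely Tmsb10, Actb, Actg1 and Cfl1, and lay below them in 0 (7.03% of genes). With a bound of 20 nt the fitted differences of Cfl1 and Tagln2 turned from 0.77 and 1.54 to -0.30 and -1.25. Limma called 7 of 1949 genes (0.359%), all higher with MHY. For tails of 30 to 90 nt, 4 of 9 lay above 0, against 55.3% of genes, and the libraries did not overlap in Pfn1 and Tagln2, both lower with MHY (15.2% of genes, and 17.6% of genes higher). In that class limma called 5 genes (0.257%), and 120 (6.16%) had an unadjusted p under 0.05. The tails of Tmsb4x overlapped between treatments at 48 h, with medians of 107 and 97.0 nt with DMSO and 109 and 104 nt with MHY, and with 1.47% and 2.33% under 30 nt in the controls and 1.89% and 0.65% with MHY. Tagln had medians of 60.4 and 74.0 nt with DMSO, from 4 and 5 reads, and 89.1 and 74.1 nt with MHY.

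**Figure D5:**
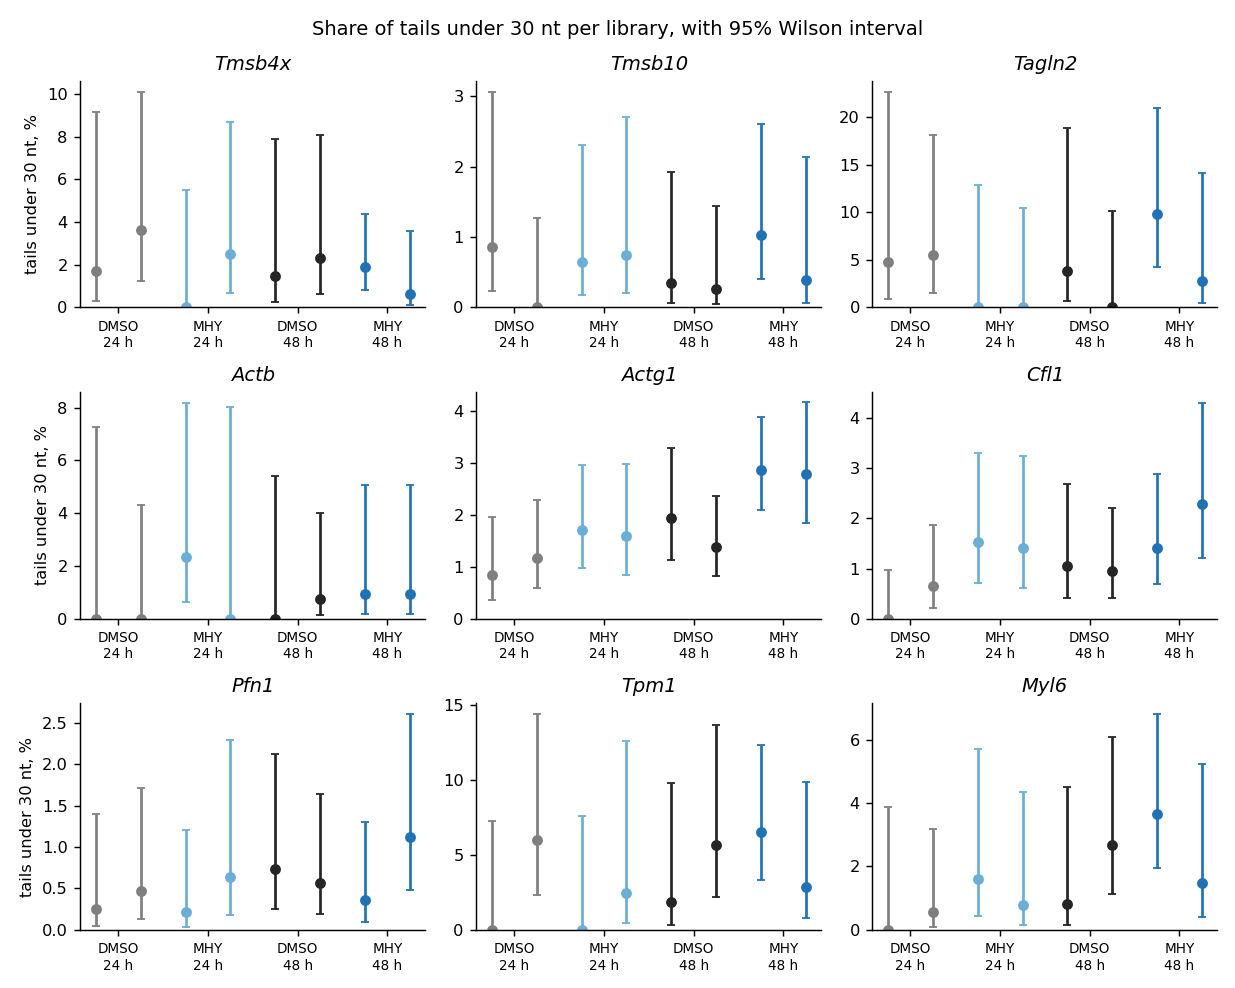
Percent of tails under 30 nt (y axis, from 0) of 9 mRNAs in each library (points, 2 per group on the x axis), with 95% Wilson intervals, which cover counting error only. The intervals of most libraries overlap, and Actg1 lies between 0.84% and 1.94% in all libraries but the 2 of MHY at 48 h, at 2.86% and 2.78%.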

How the data were processed

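P19 cells were sequenced in 8 libraries (4 groups of 2). Per the authors, Guppy was the base caller, minimap2 (2.20) the aligner against transcripts of GENCODE vM17 (mm10), Nanopolish the source of the tail lengths and Deeplexicon that of the barcodes. The deposited table gives 1 alignment per line, with the tail length in nt and alignment positions, a mapping quality score, and barcode confidence as a fraction. Gene counts were made here by counting lines tagged PASS on mRNAs (mitochondrial genes and pseudogenes set aside). The members and lists were chosen with earlier results of these data known.

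Genes with 10 or more reads in 2 or more libraries had their counts fitted with limma 3.58.1 (voom, R 4.3.3), all 8 libraries in 1 fit, scaled by the median of ratios, without a block. Shares of tails under 30 nt and of 30 to 90 nt were fitted with limma on log2 odds (0.5 added to each side), weighted by reads, for genes with at least 10 reads in every library. Genes were called at a Benjamini-Hochberg adjusted p under 0.05 over all genes. The fits were tested on simulated data. The rule for named genes took the 10 members and the called genes of the fixed list, and 6 uncalled genes of that list (Marcksl1, Cap1, Dstn, Cald1, Arpc5l and Ccn1) were named after their values were seen. Alternatives covered scale, filter, weights, block, left-out libraries, mapping quality, barcode confidence, class bounds and single runs. Wilson intervals (95%) cover counting error only.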

Additional observations from a re-analysis of the deposited data

Results flagged for a closer look

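For reads of Tmsb10 and Tpm1 the 2 MHY libraries lay on opposite sides of both DMSO libraries at the 2 time points. For Tmsb10 the mean scaled RPM with MHY minus DMSO were 265 at 24 h and -149 at 48 h. For Tpm1 they were -35.9 at 24 h and 97.7 at 48 h. The difference between the time points was not tested, because the 48 h values entered the choice of the members.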

How the results depend on the processing

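Each change below was made alone, and the cause of a shift was not tested. Of 4116 genes, 2 were called for reads at 24 h and 71 at 48 h. The 24 h count was 4 with limma's trend in place of voom and 1 with mapping quality of at least 10. The 48 h count was 34 with the trend, 44 with barcode confidence of at least 0.9 and 147 with no filter on low counts. For tails under 30 nt at 48 h (7 called), it was 2 with the confidence limit, 0 with bounds of 20 and 40 to 80 nt, 12 with the mapping quality limit, 0 without weights and 1 with the time point alone. For tails of 30 to 90 nt the 24 h count (0) was 1 with the confidence limit and 4 with the time point alone, and the 48 h count (5) was 3, 3, 1, 0 and 1 with the confidence limit, the bounds, mapping quality, no weights and the time point alone. Of the other actin genes at 48 h, 0 were called with at least 10 reads in every library, where Cnn2 was not tested, and 0 with the confidence limit, with the trend and with no filter, where its log2 was 0.90 to 0.97 and its limma adjusted p 0.0784 to 0.194.

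The labels do not say that numbers pair the libraries. Deviations of libraries sharing a number correlated at 0.018 (24 h) and 0.139 (48 h) over 1949 genes. With the replicate number as a block 92 genes were called for reads at 48 h, 17 for tails under 30 nt at 48 h, and 4 and 7 for tails of 30 to 90 nt at 24 and 48 h.

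Leaving out 1 library gave 0 to 1 calls for reads at 24 h and 17 to 141 at 48 h, the lowest without MHY library 24 (without DMSO library 25 it was 18) and the highest without MHY library 25. Tails under 30 nt gave 0 to 1 calls at both times, tails of 30 to 90 nt 0 to 1 at 24 h and 0 to 36 at 48 h, and the other actin genes 0 to 1 at 48 h. The difference between Tmsb4x and Tmsb10 tails ranged from -2.20 to 1.03 nt. It was 1.72 nt with the mean tail and 8.32 nt with mapping quality of at least 10. Tagln minus Tagln2 was -10.5 nt with the confidence limit (exact adjusted p = 0.445). Among reads reaching the 5′ window, chosen after seeing the data, it was -7.72 nt (exact adjusted p = 0.867), and Actb minus Actg1 was -9.86 nt, or -2.32 nt in the 7 libraries with at least 5 such Actb reads.

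Directions at 24 h that turned were all of differences that were not called. Log2 reads of Actb became -0.022 with the confidence limit, and those of Cfl1 0.007 with total reads and 0.01 with the upper quartile as the scale. For tails under 30 nt the bound of 20 nt gave 0.18 for Tmsb4x, -0.11 for Tmsb10, -2.58 for Actg1 and 0.059 for Pfn1. Pfn1 became 0.11 without weights, 0.086 with the replicate block and 1.25 with the confidence limit, which gave 0.28 for Tpm1. For tails of 30 to 90 nt, Actg1 became 0.094 with the other bounds and 0.068 with mapping quality of at least 10, which gave 0.040 for Tpm1, and Pfn1 became -0.16 with the confidence limit. With 1 library left out, log2 reads at 24 h ranged from -0.10 to 0.56 for Tmsb4x, -0.77 to 0.86 for Tagln, -0.13 to 0.59 for Tagln2, -0.21 to 0.35 for Actb, -0.022 to 0.32 for Actg1, -0.19 to 0.10 for Cfl1, -0.18 to 0.29 for Pfn1 and -0.10 to 0.31 for Myl6. Tails under 30 nt ranged from -0.31 to 2.37 for Tmsb10, -0.55 to 0.76 for Pfn1 and -1.91 to 0.91 for Tpm1. Tails of 30 to 90 nt ranged from -0.13 to 0.32 for Tmsb10, -0.95 to 0.20 for Actb, -0.32 to 0.11 for Actg1, -0.076 to 0.16 for Cfl1, -0.10 to 0.13 for Pfn1, -0.53 to 0.12 for Tpm1 and -0.47 to 0.19 for Myl6. In all, 44 values of single genes of 24 h turned, 42 of 48 h moved by more than the spread between libraries, 6 (all of Cnn2) lost and 1 (Cfl1, tails under 30 nt at 24 h) gained a call, and the other 639 did none of these. At 48 h, where no call was made for the members, 33 values changed sign, many within that spread, 9 of them of reads (Actb, Cfl1 and Pfn1).

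The 2 libraries a group, and 1 to 5 Tagln reads in 6 of the 8, limit what can be said of Tagln and of tails under 30 nt. A group left with 1 library was assumed to vary like the others.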
